A study of Homo sapiens with 12 samples.

Results

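Cells take up long-chain fatty acids with the help of membrane proteins of 2 gene families, and the mRNAs of both families were measured in melanoma cells treated with an activator or a blocker of the nuclear receptor PPARγ. The 9 genes were chosen by name: *CD36*, *SCARB1* and *SCARB2*, which form the CD36 family of class B scavenger receptors, and *SLC27A1* to *SLC27A6*, which encode the fatty acid transport proteins. They were found by their NCBI gene numbers among the 23705 genes of a table of raw read counts. The cells were A375, an established human metastatic melanoma line, treated for 24 h with the DMSO vehicle, with rosiglitazone (RGZ) at 5 μM, with T0070907 at 2 μM, or with the 2 compounds together at these doses (RGZ+T0070907). RGZ is an agonist of PPARγ and T0070907 an antagonist of the same receptor. All conditions received DMSO as the solvent, and the design included no genetic manipulation. Each condition had 3 libraries, 1 from each of 3 independent experiments, in which the RNA of technical replicates had been pooled, and replicate numbers are the numbers of these experiments. All values come from this 1 cell line.

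CD36 binds long-chain fatty acids, oxidised lipoproteins and thrombospondin at the cell surface, and in macrophages and adipocytes its gene is a well-known target of PPARγ. SCARB1, also called SR-BI, takes up cholesteryl esters from high-density lipoproteins, and SCARB2, also called LIMP-2, sits in the lysosome membrane and carries glucocerebrosidase there. The SLC27A proteins join fatty acids to coenzyme A, which traps them inside the cell, and the members differ in the tissues and the chain lengths they serve. PPARγ pairs with a retinoid X receptor and binds DNA at a direct repeat of the hexamer AGGTCA with 1 spacer base, called DR1.

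The total count per library was between 8319455 and 11375227 over the 12 libraries, with group medians of 8411073 for vehicle, 9874966 for RGZ, 10822352 for T0070907 and 9327546 for the combination. Levels are given as CPM, in which a gene's count is divided by the library total after TMM scaling in edgeR, and 3 counts, taken as the detection floor, corresponded to 0.258 to 0.370 CPM. Counts of 3 or fewer carry a large counting error at this depth. A gene was called when its p-value in edgeR's quasi-likelihood test, adjusted by the Benjamini-Hochberg method over the 13522 genes that passed the filter on low counts, was under 0.05. Libraries of the same experiment resembled each other, though the combination library of experiment 1 did so only weakly. Each comparison therefore had an additional fit that included the experiment, named here the replicate block. In the comparison of RGZ+T0070907 with vehicle, the block fit called 0 genes with all libraries, 2594 without replicate 2 of the combination and 873 without replicate 2 of vehicle, and values of the 9 genes that depend on the combination library are given with and without it. None of the 9 genes was called in this comparison without the vehicle library. For the combination against T0070907, the block fit called 1185 genes with all libraries and 3342 of 13660 without replicate 2 of the combination. Among 8 markers of the melanocyte lineage, *SOX10*, *MITF*, *S100B* and *PAX3* were over the floor in every library. With the block, *S100B* (log2 fold change -1.02) and *MITF* (-0.34) were lower with RGZ and higher in the combination than in RGZ (1.34 and 0.27), the only called ones of the 5 tested lineage markers in these comparisons, and without the block none of the 5 was called. Of all tested genes, 9.3% and 11.4% were called in these block comparisons. For T0070907 against vehicle, the block fit called 1 of the 5 higher, against 0.91% of all genes called. The pigment genes were low or absent, with 0 counts of *TYR* in every library, at most 1 count of *DCT* and at most 6 of *MLANA*.

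Promoter windows of 300 bases in RefSeq (GRCh38.p14), from 250 bases before to 50 after a start, were available for 8 of the 9 genes, with 6 windows for *CD36*. A search for AGGTCANAGGTCA on both strands found no exact DR1 in any of them, and the closest match had 10 of the 12 fixed letters. It occurred in 1 of the 6 *CD36* windows and in the *SLC27A2* window, at positions -147 and -145 relative to the start. A match at least this close was present in 2.97% of all 35116 windows of 27305 genes, and the exact motif in 0.023%. The hexamer AGGTCA alone, which is part of the repeat, was in 0 windows of these genes on either strand and in 13.8% of all windows. The 250 bases before the start are printed for both genes, since they hold equally close matches and the counts of both genes are given below. Both lie on the plus strand, *CD36* at chr7:80638266-80638515 and *SLC27A2* at chr15:50181946-50182195. Neither stretch overlapped an exon of its own gene in GENCODE 29, and exons of other genes were not examined. Capitals mark the match, which reads as the motif on the opposite strand.

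CD36: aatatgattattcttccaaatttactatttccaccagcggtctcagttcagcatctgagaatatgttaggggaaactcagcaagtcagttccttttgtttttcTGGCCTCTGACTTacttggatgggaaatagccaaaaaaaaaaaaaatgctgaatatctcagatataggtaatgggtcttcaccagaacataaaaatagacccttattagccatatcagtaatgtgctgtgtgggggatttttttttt

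SLC27A2: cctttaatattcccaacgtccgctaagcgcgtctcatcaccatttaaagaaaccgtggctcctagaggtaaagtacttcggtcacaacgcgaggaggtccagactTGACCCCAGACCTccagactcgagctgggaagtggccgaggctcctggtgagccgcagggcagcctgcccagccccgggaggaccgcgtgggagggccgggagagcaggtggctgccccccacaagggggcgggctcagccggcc

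In the orientation of the motif these matches read AAGTCAGAGGCCA in *CD36* and AGGTCTGGGGTCA in *SLC27A2*. The windows also differed in base composition, with a GC content of 35.0% to 43.7% in the 6 windows of *CD36* and 62.7% to 79.3% in those of the other 7 genes. GENCODE 29 lists 24 transcripts with 19 different starts for *CD36*, and counts per gene do not tell which start was used.

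In vehicle, 6 of the 9 genes were expressed and 3 were at or near the detection floor. Because longer transcripts collect more counts, levels of different genes were compared per kilobase of the longest annotated transcript. On this scale *SCARB1* had the highest level in vehicle with 22.3 ± 0.936 CPM per kb (SD, n = 3 for all levels of this paragraph), followed by *SCARB2* with 18.5 ± 1.08 and *SLC27A4* with 17.3 ± 0.607. The ranges of *SCARB2* and *SLC27A4* overlapped. *SLC27A1* came next with 4.84 ± 0.512 CPM per kb, above *SLC27A5* with 3.28 ± 0.398 and *SLC27A3* with 2.78 ± 0.419, and the ranges of *SLC27A5* and *SLC27A3* overlapped. *SCARB1* stood at or above 75.2% of the 13305 tested genes whose length is annotated, and *SLC27A3* at or above 28.1% of them. The lowest levels in vehicle were those of *SLC27A6* with 0.109 ± 0.111 CPM per kb, *SLC27A2* with 0.0327 ± 0.0567 and *CD36* with 0.0186 ± 0.0184, and their ranges overlapped. With RGZ, *CD36* rose to 0.614 ± 0.125 CPM per kb, which was above *SLC27A2* and *SLC27A6* and still below *SLC27A3* with 2.56 ± 0.505.

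**Figure D1:**
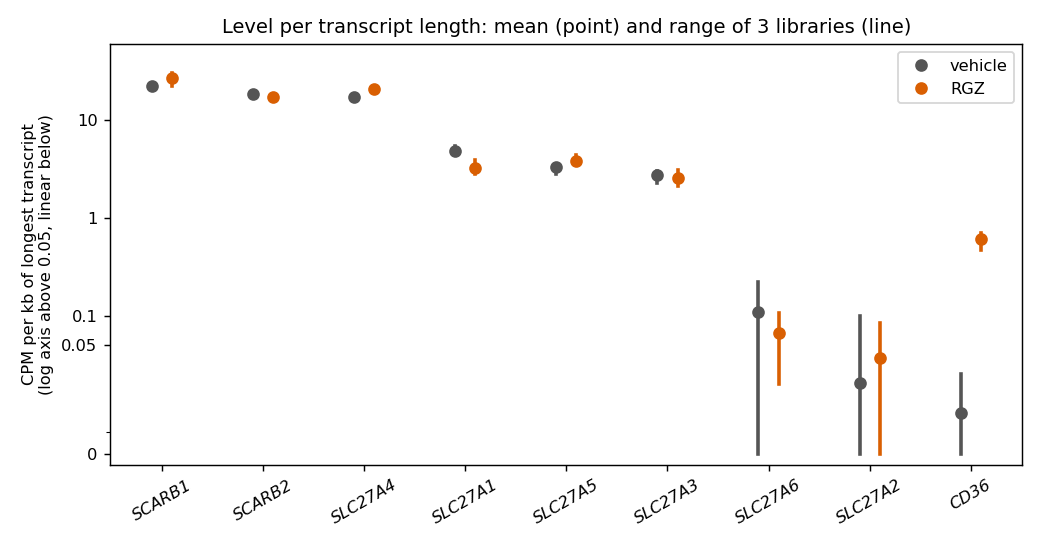
Level of each gene in CPM per kb of its longest transcript, in vehicle (grey) and with RGZ (orange), as the mean (point) and the range of 3 libraries (line), on an axis that is logarithmic above 0.05 and linear below. *SCARB1*, *SCARB2* and *SLC27A4* form the top of the order in both conditions, and *CD36* moves from 0.0186 to 0.614 CPM per kb.

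After the filter, 7 of the 9 genes were tested. *CD36* passed it through the RGZ libraries alone, and *SLC27A2* and *SLC27A6* did not pass. *CD36* thus entered the test because of the group in which it is high, and it is left out of the counts of this paragraph. For RGZ against vehicle, 0 of the 6 other tested genes were called without the replicate block, against 1.24% of all 13522 genes (0.947% higher and 0.288% lower). With the block 2 of the 6 were called, *SCARB1* higher and *SLC27A1* lower, against 9.3% of all genes (4.95% higher and 4.35% lower). For RGZ+T0070907 against RGZ, 0 of the 6 were called without the block and 1, *SLC27A1*, with it, against 1.24% and 11.4% of all genes.

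*CD36* mRNA was nearly absent from A375 cells under vehicle, appeared in every RGZ library and was nearly absent again when T0070907 was given with RGZ. The counts of *CD36* (NCBI gene 948, chromosome 7) were 2, 0 and 1 in the vehicle libraries of experiments 1, 2 and 3, and 28, 36 and 43 in the RGZ libraries. T0070907 alone had 0 counts in all 3 libraries, and the combination had 0, 1 and 3. Every RGZ library was thus far above the floor, and no library of the other conditions exceeded it.

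In CPM, *CD36* was at 2.91, 4.11 and 4.36 with RGZ (3.79 ± 0.775, SD, n = 3) and at 0.115 ± 0.113 with vehicle (SD, n = 3). The rate of *CD36* counts with RGZ was 32.5 times that with vehicle, from 107 against 3 counts, with a 95% interval of 10.8 to 160. Against the combination the ratio was 25.5, from 107 against 4 counts (95% interval 9.68 to 95.4). These exact binomial intervals cover counting error only. Since the denominators hold few counts, the ratio to vehicle was 64.1 without replicate 1 of vehicle (107 against 1 count, 95% interval 11.3 to 2554) and 21.9 without replicate 2, and that to the combination was 66.7 without replicate 3 of the combination (95% interval 11.7 to 2660) and 17.9 without replicate 1. Set against the floor of 3 counts per library, RGZ gave an at least 13.0-fold higher level than T0070907 alone, where all libraries were at 0. In edgeR's quasi-likelihood test without any filter on low counts, over 19354 genes, *CD36* had an adjusted p of 0.00241 for RGZ against vehicle and 0.00315 for the combination against RGZ. In the fit of the filtered genes, which *CD36* entered through the RGZ libraries, these values were 0.00724 and 0.00880, and 9.24e-06 and 1.02e-05 in the block fit. These filtered values describe a gene chosen in part by the same counts. With the filter, without the block and without each library of the groups compared in turn they were 0.0170 to 0.0437 and 0.0116 to 0.0402. In these bulk libraries, more cells with *CD36* mRNA and more mRNA per cell cannot be told apart. Of the genes that overlap *CD36* in GENCODE 29, *GNAT3* on the opposite strand was in the table, with 0 to 1 counts per library.

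CD36 is also a marker of adipocytes, macrophages and endothelial cells, so markers of these cells were set beside it. *ADIPOQ*, the gene of the adipocyte hormone adiponectin, had 0 counts in every library, and 5 of 7 adipocyte markers were at or under the floor throughout. The summed level of the 7 markers was 3.64 to 5.35 CPM with vehicle and 4.26 to 14.9 with RGZ, where the highest value was that of replicate 2, with 10.8 CPM of *LIPE* and 3.54 of *CIDEC*. Replicate 3, which had the most *CD36* of the RGZ libraries, had 2.94 CPM of *LIPE* and 1.01 of *CIDEC*. Of 7 macrophage and monocyte markers, *PTPRC*, *CD163* and *ITGAM* were at or under the floor in every library and *CD68*, *MSR1* and *CD14* above it, with summed levels of 43.7 to 88.0 CPM with vehicle and 56.4 to 109 with RGZ. Most of this sum was *CD68*, a lysosomal protein, at 39.7, 73.6 and 35.4 CPM with vehicle, 49.5, 97.2 and 52.0 with RGZ and 39.5, 71.4 and 39.6 with the combination. *CD68* was higher with RGZ in all 3 experiments, and of the 4 tested macrophage markers it was the only one called with the block (log2 fold change 0.42, adjusted p = 0.000827, and -0.39, adjusted p = 0.00151, for the combination against RGZ). The 6 endothelial markers summed to 6.42 to 8.70 CPM with vehicle and 3.01 to 6.08 with RGZ, and the 6 fibroblast markers to 15.4 to 35.3 and 11.4 to 22.4. *KDR* was over the floor in every library and lower with RGZ in the block fit (log2 fold change -0.93, adjusted p = 0.0118). *PECAM1* had 0, 2 and 2 counts with vehicle, 3, 12 and 4 with RGZ and 0, 2 and 2 with the combination. It did not pass the filter. Over the floor throughout were also 3 of the 6 fibroblast markers, and of the 4 tested ones the block fit called 1, *COL1A1*, lower with RGZ (log2 fold change -0.76, adjusted p = 0.000672). Of all tested genes, the block fit called 9.3% for RGZ against vehicle and 11.4% for the combination against RGZ. The part of these markers in the *CD36* difference was not tested.

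**Figure D2:**
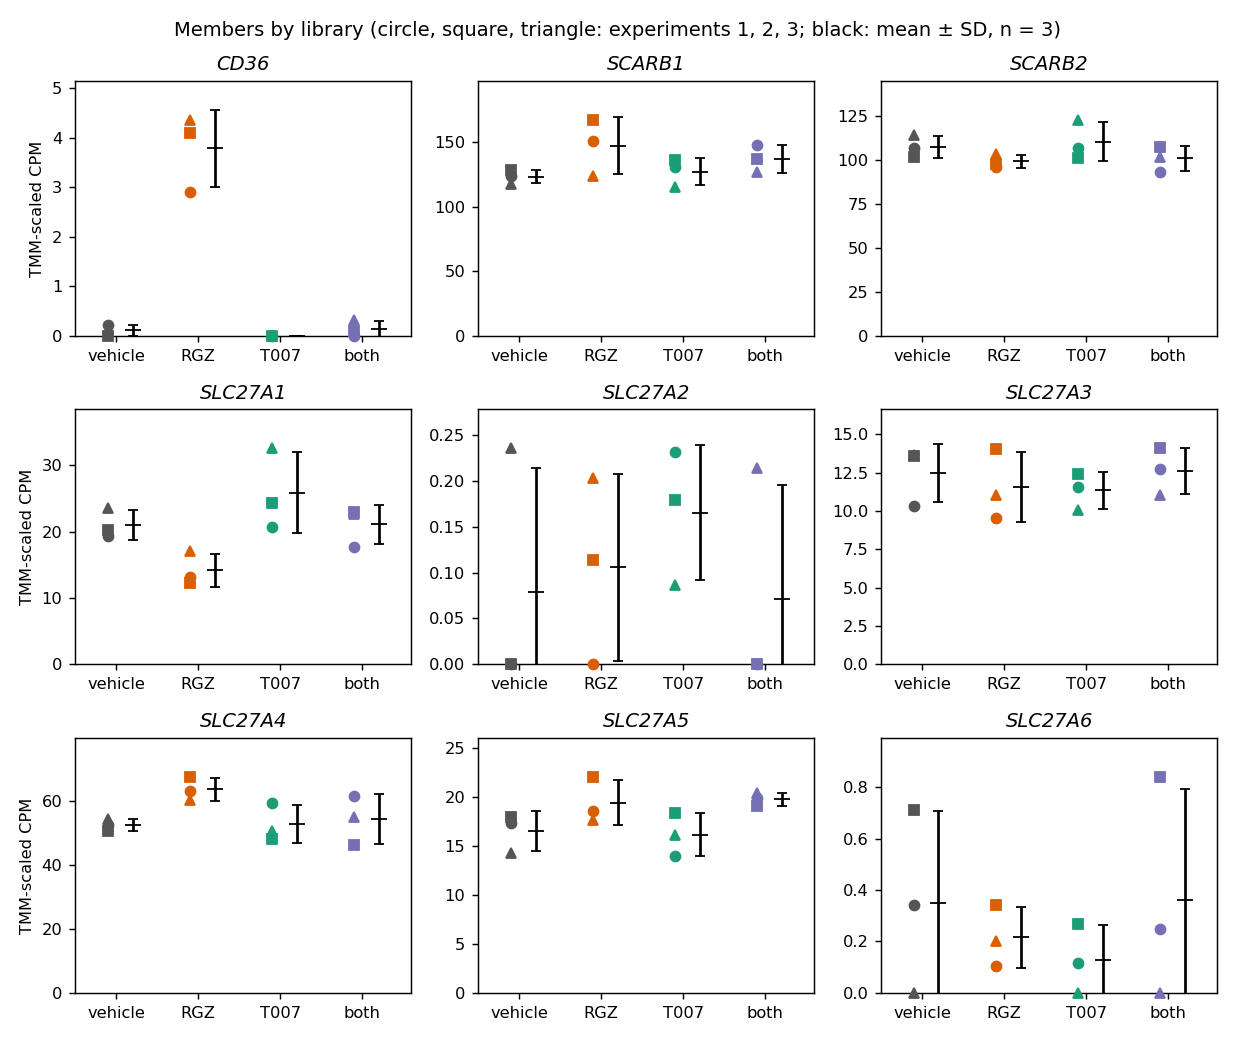
TMM-scaled CPM of the 9 genes in each library under vehicle, RGZ, T0070907 (T007) and the combination (both), with a circle, square and triangle for experiments 1, 2 and 3 and the mean ± SD of 3 libraries in black, cut at 0. *CD36* rises in the 3 RGZ libraries only, *SLC27A1* is lowest with RGZ, and *SLC27A2* and *SLC27A6* stay under 1 CPM.

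The other members of the CD36 family were abundant in every condition, and neither was called in a comparison without the replicate block. *SCARB1* (NCBI gene 949, chromosome 12) was at 123, 128 and 118 CPM with vehicle and at 151, 167 and 124 with RGZ in experiments 1, 2 and 3. It was higher with RGZ in all 3 experiments, although the RGZ library of experiment 3 lay within the range of vehicle. Without the block the change was not called (log2 fold change 0.26, SE 0.11, adjusted p = 0.404 by edgeR). With the replicate block it was 0.25 (SE 0.07, adjusted p = 0.0204) and called. That call was kept without replicate 3 of vehicle (adjusted p = 0.0295) or of RGZ (0.0137), and lost without replicate 1 (0.120) or 2 (0.0769) of vehicle and without replicate 1 (0.0730) or 2 (0.197) of RGZ, so it rested on experiments 1 and 2.

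*SCARB1* was at 131, 136 and 115 CPM with T0070907 alone and at 148, 137 and 127 with the combination. The combination libraries overlapped with those of vehicle and of RGZ. The difference from RGZ was not called (log2 fold change -0.10, SE 0.11, adjusted p = 0.719, and 0.369 with the block). Against vehicle it was 0.15 (SE 0.11, adjusted p = 0.612, and 0.199 with the block), and without replicate 2 of the combination the block fit called it, with 0.21 and an adjusted p of 0.0299. That fit called 2594 of the 13660 genes it tested.

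*SCARB2* (NCBI gene 950, chromosome 4) was at 107, 102 and 114 CPM with vehicle and at 96.3, 98.0 and 104 with RGZ. RGZ was slightly lower in all 3 experiments, and the groups overlapped. The log2 fold change of -0.12 (SE 0.08) was not called (adjusted p = 0.672 by edgeR, and 0.330 with the block). With T0070907 the libraries had 107, 101 and 123 CPM and with the combination 93.3, 108 and 102. The combination was called against T0070907 only without its replicate 2 and with the block, with a log2 fold change of -0.21 and an adjusted p of 0.0193, against 0.234 with all libraries. That fit called 3342 of the 13660 genes it tested. *FAM47E* on the opposite strand, which overlaps *SCARB2*, had 1 to 7 counts per library.

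Among the fatty acid transport proteins, *SLC27A1* fell with RGZ in the fit with the replicate block. *SLC27A1* (NCBI gene 376497, chromosome 19) encodes FATP1, a transporter of muscle and fat tissue. Its level was 19.3, 20.2 and 23.5 CPM with vehicle and 13.2, 12.3 and 17.0 with RGZ. All RGZ libraries lay below all vehicle libraries, with ratios within the experiments of 0.684, 0.610 and 0.725. This difference, a log2 fold change of -0.56 (SE 0.18), did not pass without the block (adjusted p = 0.244 by edgeR). With the replicate block it was -0.57 (SE 0.11, adjusted p = 0.00299). It remained called without each library of vehicle and RGZ in turn, with adjusted p-values of 0.00713 to 0.0313.

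When T0070907 was given with RGZ, *SLC27A1* was at 17.6, 23.0 and 22.6 CPM, which overlapped with vehicle and lay above all RGZ libraries. The lowest combination library exceeded the highest RGZ library by little, at 17.6 against 17.0 CPM, but the combination was the higher one in all 3 experiments, by ratios of 1.34, 1.87 and 1.33. Against RGZ the log2 fold change was 0.57 (SE 0.18, adjusted p = 0.207 by edgeR). With the replicate block it was 0.57 (SE 0.11, adjusted p = 0.00254), and called without each library of RGZ and the combination in turn (0.000797 to 0.0254). The comparisons of RGZ with vehicle and with the combination share the RGZ libraries.

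T0070907 alone gave the highest *SLC27A1* values, with 20.7, 24.3 and 32.5 CPM. The ratios to vehicle were 1.07, 1.20 and 1.38, and the groups overlapped. The log2 fold change of 0.30 was not called (SE 0.18, adjusted p = 1.00 by edgeR, and SE 0.10, adjusted p = 0.283 with the block). Between the combination and T0070907 it was -0.30 without the block (adjusted p = 0.464) and -0.29 with it (adjusted p = 0.0795), and without replicate 2 of the combination the block fit called it, with -0.41 and an adjusted p of 0.00852. That fit called 3342 of the 13660 genes it tested.

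*SLC27A4* (NCBI gene 10999, chromosome 9), which encodes FATP4, a transporter of the intestine and the skin, had the highest level per length of the SLC27A genes in vehicle. It was at 52.3, 50.5 and 54.2 CPM with vehicle and at 62.9, 67.4 and 60.1 with RGZ. The groups did not overlap. The difference of 0.28 on the log2 scale (SE 0.11) did not pass without the block (adjusted p = 0.355 by edgeR) and missed the threshold with it (SE 0.09, adjusted p = 0.0547), and it was called with the block only without replicate 1 of RGZ (0.0480). The combination was at 61.6, 46.1 and 54.8 CPM and lower than RGZ in each experiment, with a log2 fold change of -0.23 that was not called (adjusted p = 0.385, and 0.0919 with the block). Without replicate 1 of the combination the block fit called this difference (0.0190). T0070907 alone, at 59.3, 48.0 and 50.6 CPM, overlapped with vehicle.

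*SLC27A5* (NCBI gene 10998, chromosome 19), whose product activates bile acids in the liver, was at 17.4, 17.9 and 14.2 CPM with vehicle and at 18.5, 22.0 and 17.6 with RGZ. RGZ was higher in every experiment, and the groups overlapped. The log2 fold change of 0.23 (SE 0.13) was not called (adjusted p = 0.594 by edgeR, and 0.245 with the block). The combination, at 19.9, 19.0 and 20.3 CPM, lay above all libraries of vehicle and of T0070907, which had 14.0, 18.3 and 16.1. Its log2 fold change was 0.26 against vehicle (adjusted p = 0.506, and 0.200 with the block) and 0.29 against T0070907 (adjusted p = 0.335, and 0.101 with the block). Without replicate 2 of the combination, the block fit called both, with 0.37 and an adjusted p of 0.0325 against vehicle and 0.40 and 0.0160 against T0070907. Of 13660 tested genes, that fit called 2594 against vehicle and 3342 against T0070907. *ZNF446*, on the opposite strand of *SLC27A5*, had 159 to 275 counts against 121 to 205 for *SLC27A5* itself, and whether reads were counted by strand is not given in the sources used here. The split of reads between the 2 genes is therefore uncertain.

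*SLC27A3* (NCBI gene 11000, chromosome 1), an acyl-CoA synthetase, was at 10.3, 13.5 and 13.6 CPM with vehicle and at 9.56, 14.0 and 11.1 with RGZ. The groups overlapped in every comparison with vehicle. The log2 fold change with RGZ was -0.12 (SE 0.17, adjusted p = 0.862 by edgeR, and 0.645 with the block). T0070907 gave 11.5, 12.4 and 10.1 CPM and the combination 12.7, 14.1 and 11.0. Its level is also uncertain, since *INTS3* overlaps it on the same strand and had 1071 to 1705 counts per library.

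The last members, *SLC27A2* (NCBI gene 11001, chromosome 15), a transporter of liver and kidney, and *SLC27A6* (NCBI gene 28965, chromosome 5), known from heart, had counts near 0 in all conditions. *SLC27A2* had 0 to 2 counts in each of the 12 libraries, with 0, 0 and 2 for vehicle and 0, 1 and 2 for RGZ. *SLC27A6* had 3, 6 and 0 counts for vehicle, 1, 3 and 2 for RGZ, 1, 3 and 0 for T0070907 and 2, 8 and 0 for the combination. At this depth no change of either gene with RGZ was detectable. In a fit without the filter, over 19354 genes, the lowest adjusted p of either gene in any comparison was 0.736.

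**Figure D3:**
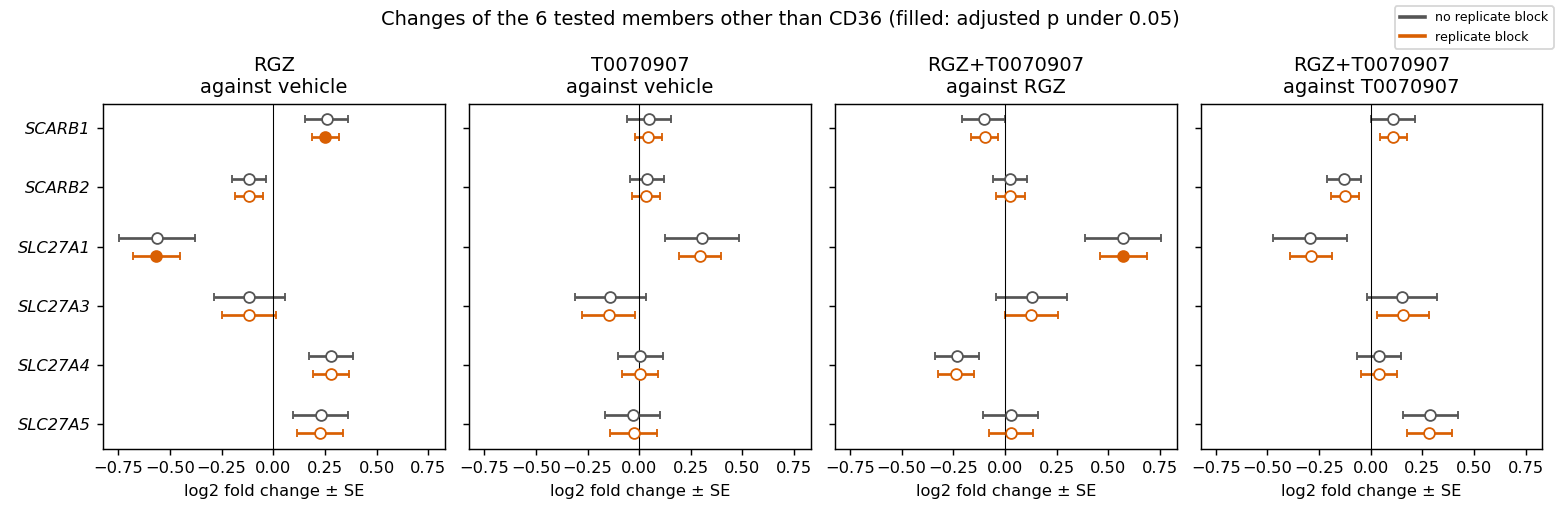
Log2 fold change ± SE of the 6 tested genes other than *CD36* in 4 comparisons, from edgeR without (grey) and with (orange) the replicate block, with filled points for an adjusted p under 0.05. *SLC27A1* moves by -0.57 with RGZ and by 0.57 from RGZ to the combination, and the SE is smaller with the block.

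For T0070907 against vehicle, edgeR called 0 of the 7 tested genes, against 0.0074% of all genes without the block and 0.91% with it. At an unadjusted p under 0.05, 0 of the 7 passed without the block and 1, *SLC27A1*, with it, against 3.1% and 9.82% of all genes. For the combination against vehicle it called 0 of 7, against 0% of all genes in both fits (1438 and 2868 genes at an unadjusted p under 0.05), and 0 of 7 and 2 of 7, *SCARB1* and *SLC27A5*, passed an unadjusted p under 0.05. DESeq2 called 0 genes in this comparison without the block and 161 with it, and limma-voom 0 in both. With the block DESeq2 gave an adjusted p for 3 of the 7, of which none was called, and for *CD36*, *SLC27A1*, *SLC27A3* and *SLC27A5* it gave none. For the combination against T0070907, 0 of 7 were called, against 0.037% and 8.76% of all genes. *CD36*, which entered the test through RGZ, is left out of the genes at an unadjusted p under 0.05. None of the others passed this p without the block, and *SLC27A1* and *SLC27A5* passed it with the block. Of all 13522 genes, 2028 and 3758 passed it. *CD36* had 4 counts in the combination and 0 with T0070907, so no fold is given for it. The interaction, which asks whether the effect of RGZ differs with T0070907 present, was called for 0 of 7, against 0% of all genes without the block (406 at an unadjusted p under 0.05) and 0.281% with it, and 0 of the 7 passed an unadjusted p under 0.05 in either fit. The lowest adjusted p among the 7 with the block was 0.549, for *SLC27A4*. *CD36* entered the test through RGZ and is at 0 with T0070907 alone, so that its interaction rests on the small number a tool adds to each count and no fold or p is given for it. Whether it passed an unadjusted p under 0.05 differed between the tools and is not read as a result. It passed an adjusted p under 0.05 in none of the fits that gave one. Limma-voom called 0 of the 7 in these 4 comparisons, with and without the block. DESeq2 called 0 of those to which it gave an adjusted p, which left out, besides the genes named above, *CD36* for T0070907 against vehicle without the block and for the interaction with it. For the combination against T0070907 it gave none for *CD36*, *SLC27A1*, *SLC27A3* and *SLC27A5* without the block and for *CD36* with it.

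Fatty acids that enter the cell are bound by fatty acid-binding proteins and activated by acyl-CoA synthetases, and a list of 16 genes of fatty acid uptake and activation was set beside the transporters. Besides these proteins it holds caveolar proteins, *GOT2*, the lipoprotein lipase *LPL*, the lysophospholipid carrier *MFSD2A* and the acyl-CoA-binding *DBI*. Of its 15 tested genes, 2 were higher and 0 lower with RGZ without the block, and 6 higher and 1 lower with it. Of all tested genes 0.947% were higher and 0.288% lower without the block, and 4.95% and 4.35% with it. *FABP4*, 1 of those called in both fits, entered the test through RGZ, like *CD36*. The median log2 fold change of the list was 0.12, against -0.01 for all tested genes. The fatty acid-binding protein gene *FABP4*, a canonical PPARγ target, had 1 count in each vehicle library and 1895, 3513 and 1648 with RGZ. The combination had 9, 9 and 25 counts of *FABP4* and T0070907 alone 1, 3 and 0. Every combination library held more *FABP4* than the floor of 3 counts, which none exceeded for *CD36*. The floor does not compare the degree of the fall, since the levels with RGZ were unlike. *FABP4* averaged 255 CPM with RGZ and 1.58 in the combination, and *CD36* 3.79 and 0.142.

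The long-chain acyl-CoA synthetase *ACSL3*, which acts at lipid droplets, was at 171, 171 and 190 CPM with vehicle and at 309, 323 and 402 with RGZ. The groups did not overlap, and the change passed both fits (log2 fold change 0.96, SE 0.13, adjusted p = 0.00375 by edgeR without the block). The combination, at 173, 193 and 244 CPM, was lower than RGZ (log2 fold change -0.76, SE 0.13, adjusted p = 0.0136). *ACSL4*, the synthetase of arachidonic acid, also fell from RGZ to the combination, by 0.49 on the log2 scale (SE 0.10, adjusted p = 0.0476). With the block, *ACSL5* (log2 fold change 1.36), *LPL* (0.75), *DBI* (0.44) and *ACSL4* (0.36) were higher and *FABP7* (-1.32) lower with RGZ, with adjusted p-values of 4.26e-05, 0.00790, 0.000934, 0.00352 and 0.00467. *LPL* releases fatty acids from lipoproteins, and *DBI* binds acyl-CoA. In the combination against RGZ with the block, 5 genes of this list were lower and 1 higher, where 11.4% of all tested genes were called. *FABP4* is 1 of the 5, and without it 4 of the 14 other tested genes were lower.

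In the lists around the single members, edgeR called 0 genes for RGZ against vehicle without the block. At an unadjusted p under 0.05, this fit had 2 of 12 tested ligands and partners of CD36, 1 of 9 genes of SCARB1 partners and lipoprotein cholesterol, 1 of 9 lysosomal genes around SCARB2 and 1 of 8 genes of very long-chain fatty acid and bile acid conjugation, where 10.5% of all tested genes passed this p. Of the 12 ligands and partners of CD36, 3 were called with the block, against 9.3% of all tested genes, which is also the share to set beside the 3 other lists. The ligand *THBS1*, which encodes thrombospondin, was lower (log2 fold change -0.45, adjusted p = 0.00606), and the tetraspanin *CD9* (0.41, adjusted p = 9.23e-05) and the receptor *TLR4* (0.80, adjusted p = 7.75e-05) were higher. *TLR4* had 81.1, 58.2 and 101 CPM with vehicle and 143, 97.6 and 178 with RGZ. RGZ was higher in each experiment, but the groups overlapped. Of the 9 genes around SCARB1, the block fit called 2, the sterol efflux pump *ABCA1* higher (0.62, adjusted p = 0.0180) and the receptor *LRP1* lower (-0.31, adjusted p = 0.0462). Of the 9 lysosomal genes it called 2, the cholesterol-binding *NPC2* (0.56, adjusted p = 3.09e-05) and *PSAP* (0.18, adjusted p = 0.0364), both higher. Of the 8 genes of very long-chain fatty acid and bile acid conjugation it called 0, with 2 at an unadjusted p under 0.05, which 22.1% of all tested genes passed in this fit. The medians of these 4 lists for RGZ against vehicle with the block were 0.02, 0.04, -0.01 and 0.01, against -0.01 for all genes.

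**Figure D4:**
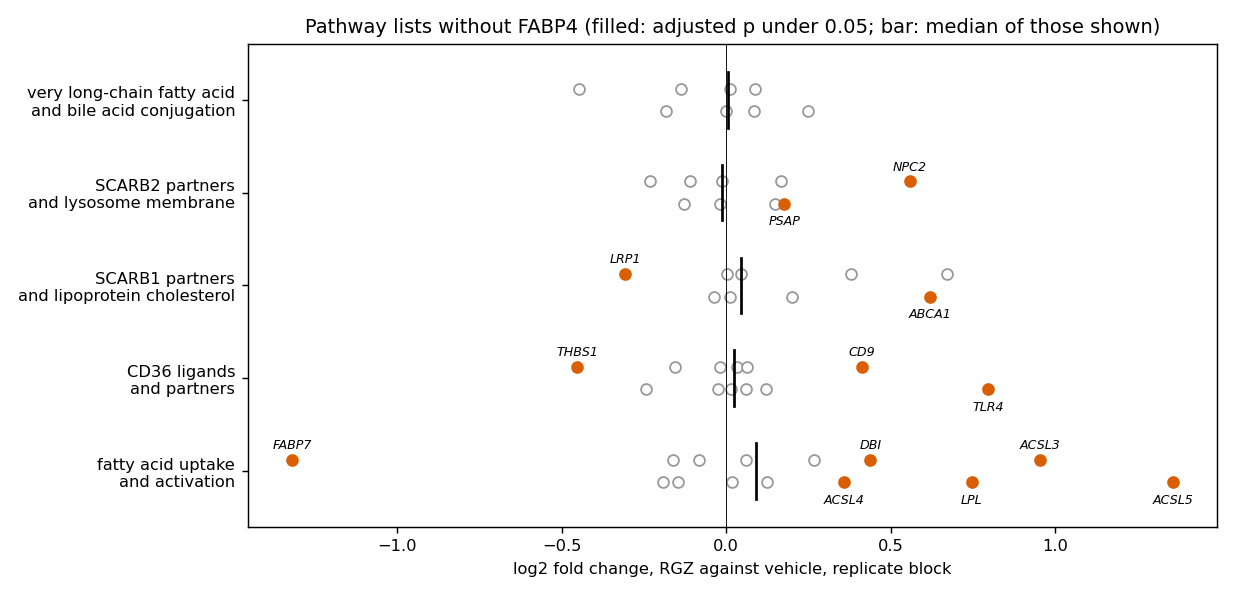
Log2 fold change for RGZ against vehicle, with the replicate block, of the tested genes of the 5 lists, with *FABP4* left off because its vehicle libraries hold 1 count each. Filled points had an adjusted p under 0.05, and the bars are medians of the points shown. *ACSL5* at 1.36 and *FABP7* at -1.32 are the ends of the scale, and the lysosomal and very long-chain lists have medians near 0.

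Against T0070907, the combination called 3 genes of the fatty acid list higher with the block, *FABP4*, *ACSL3* and *DBI*, where 8.76% of all tested genes were called. In the same fit *CD9*, *TLR4* and *NPC2* were higher and *LRP1* lower, and no other gene of the 5 lists was called. For the combination against RGZ with the block, 3 ligands and partners of CD36 (*CD9*, *TLR4* and the palmitoyltransferase *ZDHHC5*), 3 of the 9 genes around SCARB1, with *ABCA1* and *NCEH1* among them, and 1 of the 9 lysosomal genes, *NPC2*, were lower. In the same fit 1 of the 8 genes of very long-chain fatty acid and bile acid conjugation was higher, and the share of all tested genes called was 11.4%. For T0070907 against vehicle with the block, *ACSL3* (-0.32, adjusted p = 0.0194) and *TLR4* (-0.55, adjusted p = 0.0286) were lower and no gene of the other 3 lists was called, against 0.91% of all tested genes. Against vehicle, edgeR called 0 of the 53 tested genes of the 5 lists for the combination in either fit, with 4 at an unadjusted p under 0.05 without the block and 12 with it, where 10.6% and 21.2% of all tested genes passed this p.

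The genes with the most similar profile to each called member were found by Pearson's correlation of log2 CPM over the 12 libraries, among the 13209 tested genes that averaged 1 CPM or more. These correlations have no test, and the libraries share experiments and conditions. The genes nearest to *CD36* were *C11orf86* (r = 0.978), *MTAP* (0.966), *CORO2B* (0.963), *LINC00941* (0.962) and *UHRF2* (0.962). Outside RGZ *CD36* had at most 3 counts per library, so these values mainly set RGZ against the other conditions. *C11orf86* had at most 7 counts there. The mean of *C11orf86* was 0.271 CPM in vehicle, 4.75 in RGZ, 0.107 in T0070907 and 0.507 in the combination, while *MTAP* was abundant throughout, with 298, 363, 276 and 297 CPM. The genes nearest to *SLC27A1* were *FAM3C* (0.968), *C1R* (0.962), *LOXL4* (0.953), *CLIP3* (0.949) and *SYTL2* (0.947). *LOXL4* averaged 206 CPM in vehicle, 99.1 in RGZ, 292 in T0070907 and 234 in the combination, the same order of conditions as *SLC27A1*, whose means of vehicle and the combination were nearly equal at 21.0 and 21.1. For *SCARB1* the nearest were *YDJC* (0.913), *ZNF598* (0.911), *BID* (0.896), *LTBR* (0.895) and *UCK2* (0.893). *SCARB1* itself was highest in the RGZ libraries of experiments 1 and 2, followed by the combination library of experiment 1.

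**Figure D5:**
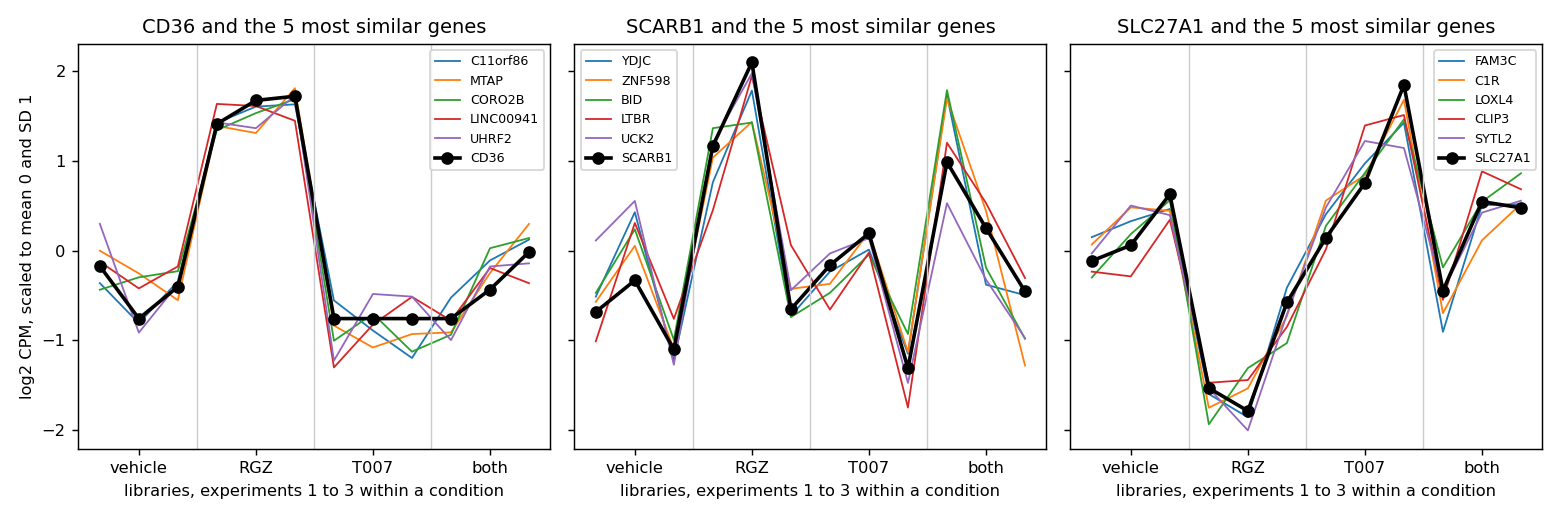
Log2 CPM of *CD36*, *SCARB1* and *SLC27A1* (black) and of the 5 most similar genes of each (coloured) over the 12 libraries, each gene scaled to mean 0 and SD 1, with experiments 1 to 3 in order within vehicle, RGZ, T0070907 (T007) and the combination (both). *CD36* and its nearest genes are high in the 3 RGZ libraries, and *SLC27A1* is at its lowest in them.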

How the data were processed

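RNA of A375 cells was sequenced by the submitters from TruSeq RNA libraries on an Illumina HiSeq instrument. The authors deposited raw counts of reads per gene, without normalization, for 12 libraries, with rows named by NCBI gene number. The genome build was hg19 per the submitters' processing notes. The aligner, the counting tool and its use of strand are not given in the sources used here. Conditions and experiments were taken from the labels. Symbols were found for 23538 of 23705 gene numbers.

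The analysis used edgeR 4.0.16 in R 4.3.3, with TMM scaling, filterByExpr and a quasi-likelihood model of all 12 libraries with 4 groups. P-values were adjusted by the Benjamini-Hochberg method over 13522 genes. An SE beside an edgeR value is approximate, obtained from the change and its F statistic. The number in the labels marks the shared experiment and pairs the libraries. Deviations from group means correlated for 18 pairs of the same experiment at 0.0793 to 0.758 (median 0.673), over 0.1 in 17. The lowest were those of the combination library of experiment 1, at 0.0793 with vehicle, 0.194 with RGZ and 0.162 with T0070907. Alternatives were the replicate block, DESeq2 1.42.0 and limma-voom (limma 3.58.1) with and without it, DESeq2's size factors, no filter, at least 10 counts in every library, a fit of only the groups compared, and each library left out in turn. Tests were tried on simulated data. Levels per kb used the longest GENCODE 29 transcript, and log2 CPM for similar genes a prior count of 2. Named were all 9 genes, list genes called in any comparison without the block or for RGZ against vehicle with it, and the 5 genes most similar to each called member. *LIPE*, *CIDEC*, the other marker genes and the list genes named for the other block comparisons were chosen after their values were seen. Some called list genes are not reported here. The genes and lists were chosen with earlier results of these data known. Figures were drawn with matplotlib 3.10.9.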

Additional observations from a re-analysis of the deposited data

How the results depend on the processing

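For RGZ against vehicle, the number of tested genes of the 2 families that were called was 1, and it was 3 with the replicate block in edgeR, DESeq2 and limma-voom. For the combination against RGZ it was 1, and 2 with the block in the same tools. Each of these numbers includes *CD36*, which entered the test through RGZ, and leaving it out gives 0 and 2 for RGZ against vehicle and 0 and 1 for the combination against RGZ, where edgeR called 1.24% and 9.3%, and 1.24% and 11.4%, of all genes. The block changed no other call among these genes. With at least 10 counts in every library both numbers were 0, since *CD36* was then not tested. DESeq2 without the block gave no adjusted p for *CD36* in the combination against RGZ, and its number is left out there. The other alternatives without the block and without a left-out library gave the same numbers, as did all alternatives with every library for the comparisons with 0 calls, where DESeq2 gave no adjusted p for up to 4 of the 7 genes, so that its number of 0 covers the others.

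Without each library of the groups compared in turn and without the block, the log2 fold change changed sign for *SLC27A3* with RGZ (-0.28 to 0.0033), for *SCARB2* between the combination and RGZ (-0.024 to 0.079) and for *SLC27A5* in the same comparison (-0.036 to 0.13), none of which was called in any of these fits. Of all log2 fold changes compared under the alternatives, 266 kept their direction and their side of the threshold, 9 passed it newly and 4 changed sign. The leave-one-out fits with the block, outside RGZ against vehicle, and the count ratios of *CD36* without each library were chosen after seeing the data. Depth limits *CD36*, *SLC27A2* and *SLC27A6*, whose counts of 0 to 8 outside RGZ allow no statement on smaller changes.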
